A study of Mus musculus with 6 samples.

Results

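Neuropeptide receptors are the cell-surface proteins through which secreted peptides such as neuropeptide Y, vasopressin, neurotensin and somatostatin act on neurons and glia. A list of 40 such genes from 16 peptide systems was followed, and 37 of them could be read from a probe set named for that gene alone, of 18193 genes measured in all. Galr3 was represented only by probe sets shared with Gcat, and Galr3, Mc4r and Ednra were not analysed here. Where a gene had several probe sets, the brightest by mean signal represents it.

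The tissue was the subiculum and the retrosplenial cortex, dissected together on postnatal day 1. Pools from D6/Zbtb20S transgenic mice, whose areas the labels call CA1-transformed, were compared with pools from wildtype mice, their littermates, all on a C57BL/6 background. D6 is a regulatory element of the mouse Dach1 gene that is active in the developing cortex and hippocampus, and Zbtb20S is the short form of the zinc finger repressor Zbtb20, a factor of hippocampal pyramidal neurons. There were 3 arrays per genotype, each holding RNA pooled from 7 animals. The sources do not tie pools to litters, and the p-values here therefore speak of the spread between pools alone.

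As background, all but 1 of the receptors measured belong to the G protein-coupled class. Those coupled to Gq raise intracellular calcium, those coupled to Gi lower cyclic AMP and open potassium channels, and those coupled to Gs raise cyclic AMP. The exception is Sort1 (sortilin), a sorting receptor that binds neurotensin. Most of the peptides are released by subsets of cortical and hippocampal neurons and act over longer distances and times than glutamate or GABA.

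Values are log2 signals as deposited, and a change is D6/Zbtb20S minus wildtype, with ± its standard error (SE) from the limma fit. Where a group mean has a ±, that is the standard deviation (SD) over the pools of the group. A gene was called at a Benjamini-Hochberg adjusted p under 0.05 over all genes, and every adjusted p below is from limma unless said otherwise. The mean of the array medians was 3.879, and a gene under the array median is called dim, since the array method compresses changes near its floor. In bulk tissue, fewer cells of a type and less RNA per cell cannot be told apart.

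Zbtb20 itself, on the 1 of its 9 probe sets that passed, read 8.88, 9.10 and 8.94 in D6/Zbtb20S pools and 6.44, 5.84 and 7.64 in wildtype pools (limma adjusted p = 0.00904 over all probe sets). The other 8 did not pass, and their changes went in both directions, from -0.37 to 0.85. Among these was the brightest Zbtb20 probe set by mean signal, which represents the gene under the rule above. It was at -0.14 (limma adjusted p = 0.825 over all probe sets), so Zbtb20 was not called by that rule. Which of the probe sets read the transgene is not given in the sources used here. Wildtype replicate 3 was the highest wildtype array on all 9 of them. That pool was also the wildtype pool nearest to the D6/Zbtb20S mean for 5 of the 10 receptors called below (Oxtr, Ntsr1, Npy1r, Npy5r and Tacr3). Wildtype replicate 2 was nearest for 3 of them and wildtype replicate 1 for 2. The share over all genes was not counted, so these counts do not set a pool apart. Without wildtype replicate 3, 6 receptors were called higher and 4 lower, with Sstr4 added and Ntsr2 lost. Correlations between arrays (Pearson's r across genes, which are not independent) ranged from 0.9961 to 0.9972 within D6/Zbtb20S, from 0.9943 to 0.9967 within wildtype and from 0.9884 to 0.9914 across genotypes.

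Of the 37 receptors, 10 (27.0%) differed between the genotypes, against 7.71% of all genes. The receptors were chosen with earlier results of these data known, as were the lists below. Such shares therefore describe the lists and do not test for an excess. Called higher in D6/Zbtb20S tissue were Avpr1a, Npy2r, Tacr3, Npy1r and Npy5r (5 of 37, against 4.06% of all genes), and called lower were Trhr, Ntsr1, Oxtr, Sstr2 and Ntsr2 (5 of 37, against 3.64%). The median change of the receptors was -0.0022 and that of all genes -0.015. Measured differences of at least 2-fold that passed were found for 5 receptors (13.5%), namely Trhr, Avpr1a, Npy2r, Ntsr1 and Tacr3, against 1.45% of all genes. Both group means of Trhr and the wildtype mean of Npy2r were under the mean of the array medians. Trhr is counted here by its measured signal alone. With an ordinary linear model without empirical Bayes, 2 receptors were called higher (Avpr1a and Tacr3) and 1 lower (Trhr), while 267 genes were called in all.

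The groups did not overlap for 13 receptors (35.1%, against 26.1% of all genes).

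**Figure D1:**
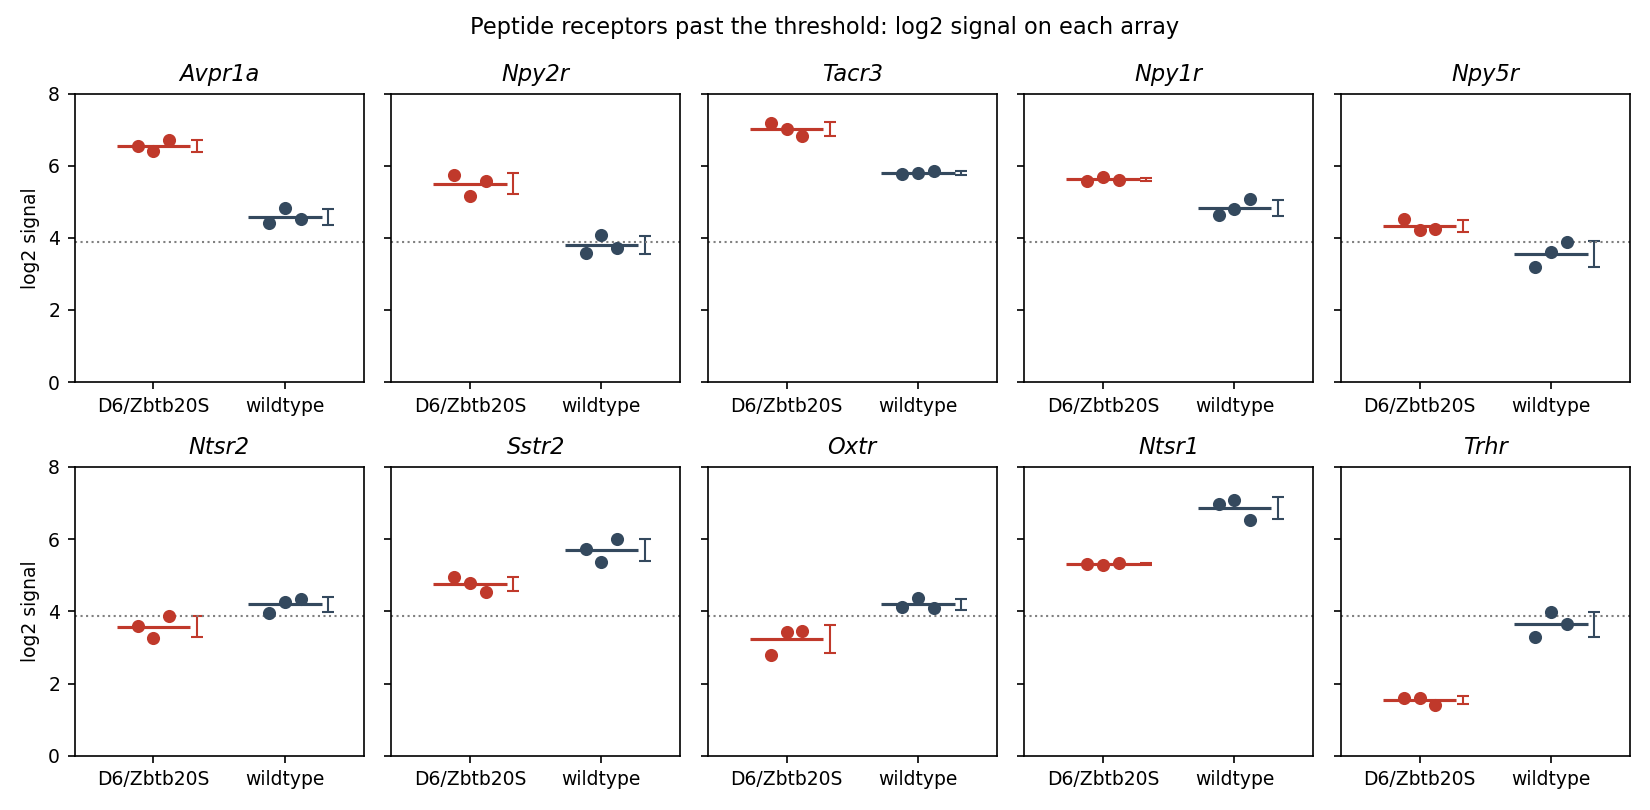
Log2 signal (vertical axis) of the 10 receptors past the threshold, with a point for each of the 3 D6/Zbtb20S and 3 wildtype arrays, a line for the group mean, a bar for ± 1 SD beside it and a dotted line at the mean of the array medians (3.879). The genotypes do not overlap in any of the 10 panels, and Ntsr2 has the narrowest gap between genotypes (0.087).

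All 3 listed receptors of the neuropeptide Y system were called higher in D6/Zbtb20S tissue. A further receptor of the family outside the list, Npy6r, was dim on every array. Npy2r, mostly a presynaptic receptor that restrains transmitter release, read 5.74, 5.17 and 5.58 in D6/Zbtb20S pools, against 3.58, 4.08 and 3.73 in wildtype pools. Every transgenic pool lay more than 1 log2 unit above every wildtype pool. The change was 1.70 ± 0.16, which is 3.25-fold (adjusted p = 0.000187), and the wildtype mean was dim.

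Npy1r, the mainly postsynaptic receptor of the family, read 5.59, 5.68 and 5.60 in D6/Zbtb20S pools and 4.64, 4.79 and 5.07 in wildtype pools. The transgenic pools were tightly grouped, and the highest wildtype pool, replicate 3, stayed below them. The rise was 1.73-fold (0.79 ± 0.11, adjusted p = 0.00197), while a dimmer Npy1r probe set, 1426054_at, was at -0.06 ± 0.11 (adjusted p = 0.842).

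Npy5r, a receptor best known for feeding control, read 4.52, 4.23 and 4.25 in D6/Zbtb20S pools and 3.18, 3.59 and 3.90 in wildtype pools, where the mean was dim. Its groups were separated by 0.33 log2 units, again with wildtype replicate 3 nearest to the transgenic pools. Npy5r rose by 0.78 ± 0.16 (adjusted p = 0.0187), and this call was lost without wildtype replicate 2 (adjusted p = 0.063), without D6/Zbtb20S replicate 1 (0.0976) or without D6/Zbtb20S replicate 3 (0.0515). Its other probe set, 1419008_at, was at 0.14 ± 0.10 and did not pass (adjusted p = 0.52).

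Npy1r and Npy5r are neighbours on mouse chromosome 8 and are transcribed away from each other, with 9328 bases between the gene starts of the RefSeq windows used here, while Npy2r lies on chromosome 3. Their promoters are shown because the 3 genes were higher together. Each window holds 250 bases before the gene start and 50 after it, from RefSeq (GRCm38.p6), and capitals mark matches to any of 5 short motifs searched on both strands.
Npy5r (chr8:66688045-66688344, reverse strand): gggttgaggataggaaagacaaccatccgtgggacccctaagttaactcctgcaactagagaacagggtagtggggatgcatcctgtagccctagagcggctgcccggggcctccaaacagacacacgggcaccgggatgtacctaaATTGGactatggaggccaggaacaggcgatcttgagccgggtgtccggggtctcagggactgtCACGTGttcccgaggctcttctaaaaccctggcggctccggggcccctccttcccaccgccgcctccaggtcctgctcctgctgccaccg
Npy1r (chr8:66697172-66697471, forward strand): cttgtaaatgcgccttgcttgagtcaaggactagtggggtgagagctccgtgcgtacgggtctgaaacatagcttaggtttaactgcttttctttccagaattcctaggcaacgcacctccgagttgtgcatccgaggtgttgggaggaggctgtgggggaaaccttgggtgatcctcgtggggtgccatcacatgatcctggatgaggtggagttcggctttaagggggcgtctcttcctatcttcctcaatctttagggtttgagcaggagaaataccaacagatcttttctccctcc
Npy2r (chr3:82548036-82548335, reverse strand): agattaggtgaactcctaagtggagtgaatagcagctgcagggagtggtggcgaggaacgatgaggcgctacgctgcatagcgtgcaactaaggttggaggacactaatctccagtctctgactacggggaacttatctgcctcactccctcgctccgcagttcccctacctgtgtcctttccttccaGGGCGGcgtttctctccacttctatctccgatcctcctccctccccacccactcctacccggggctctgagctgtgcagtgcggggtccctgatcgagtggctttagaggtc

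The core of the TATA box was searched as TATAAA. The cyclic AMP response element was searched as TGACGTCA, the GC box as GGGCGG, the CCAAT box by the letters of its name and an E-box as CACGTG. The Npy5r window held a CCAAT box on the reverse strand 103 bases before the gene start and an E-box 40 bases before it, and the Npy2r window held a GC box 62 bases before its start. None of the 5 motifs was found in the Npy1r window, so no motif of this set was shared by the neighbouring pair. In 32851 mouse promoter windows of the same length, 37.4% held the CCAAT box, 35.7% the GC box, 13.6% the TATA box core, 7.15% the E-box and 1.79% the cyclic AMP response element. Of 30 listed receptors with a window, which had 37 windows in all, 15 windows held the CCAAT box, 11 the GC box, 7 the E-box, 4 the TATA box core and 1, that of Sstr2, the cyclic AMP response element.

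Vasopressin and oxytocin receptors, which are close relatives, went in opposite directions. Avpr1a, the V1a vasopressin receptor and a Gq-coupled receptor of forebrain neurons, read 6.55, 6.39 and 6.72 in D6/Zbtb20S pools, against 4.40, 4.81 and 4.51 in wildtype pools. The gap between the lowest transgenic and the highest wildtype pool was 1.58 log2 units. The change was 1.98 ± 0.12 (adjusted p = 1.64e-05), and it kept its call in every fit that left out 1 array. A further Avpr1a probe set, 1418603_at, read 6.30, 6.35 and 6.40 in D6/Zbtb20S pools and 3.38, 3.05 and 3.89 in wildtype pools, a change of 2.91 ± 0.18 (limma adjusted p = 0.000109 over all probe sets).

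Oxtr, the oxytocin receptor, read 2.79, 3.44 and 3.46 in D6/Zbtb20S pools and 4.13, 4.37 and 4.09 in wildtype pools. All transgenic values were dim and all wildtype values lay above the array median, with D6/Zbtb20S replicate 1 the lowest. Oxtr fell by 0.97 ± 0.17 on the log2 scale (adjusted p = 0.00703), while its other probe set, 1426000_at, was dim on all arrays, with a change of 0.02 ± 0.08. As the mean of its probe sets Oxtr was at -0.48 and passed (adjusted p = 0.0249). Avpr1b, the V1b receptor of pituitary corticotrophs and hippocampal CA2, was dim on all arrays, with 2.56 ± 0.14 in D6/Zbtb20S and 2.55 ± 0.15 in wildtype tissue (SD, n = 3 each).

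The promoter windows of Avpr1a and Oxtr are printed for comparison, as those of the relatives that changed in opposite directions, with the same 5 motifs in capitals.
Avpr1a (chr10:122448249-122448548, forward strand): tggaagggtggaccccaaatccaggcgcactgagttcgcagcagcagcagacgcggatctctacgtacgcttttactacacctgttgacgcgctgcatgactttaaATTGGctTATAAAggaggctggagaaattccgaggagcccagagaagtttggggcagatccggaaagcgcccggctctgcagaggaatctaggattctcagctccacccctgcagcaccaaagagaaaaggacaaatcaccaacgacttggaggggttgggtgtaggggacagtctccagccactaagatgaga
Oxtr (chr6:112489776-112490075, reverse strand): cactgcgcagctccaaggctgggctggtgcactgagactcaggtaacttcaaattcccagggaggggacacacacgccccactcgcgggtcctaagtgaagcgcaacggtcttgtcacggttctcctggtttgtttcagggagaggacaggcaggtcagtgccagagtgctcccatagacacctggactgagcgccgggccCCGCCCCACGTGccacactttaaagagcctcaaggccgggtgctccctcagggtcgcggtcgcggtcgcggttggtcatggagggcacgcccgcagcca

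In the Avpr1a window a CCAAT box on the reverse strand began 144 bases before the gene start and a TATA box core 137 bases before it. The Oxtr window held a GC box on the reverse strand from 49 bases before its start, directly followed, without overlap, by an E-box from 43 bases before it, so the capitals run together there. The 2 windows shared none of the 5 motifs.

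Among tachykinin receptors only Tacr3 passed the limma threshold. Tacr3 is the neurokinin B receptor, which couples to Gq. It read 7.19, 7.03 and 6.82 in D6/Zbtb20S pools, against 5.76, 5.79 and 5.86 in wildtype pools, so the wildtype pools were nearly level and all transgenic pools were above them. The rise was 2.31-fold (1.21 ± 0.10, adjusted p = 8.36e-05). Its probe set is of the _x_at type, which can match more than 1 transcript. The probe set 1437029_at showed a larger difference, with 5.94, 5.54 and 5.498 in D6/Zbtb20S pools and 3.53, 3.90 and 4.21 in wildtype pools (1.78 ± 0.18, limma adjusted p = 0.00105 over all probe sets), whereas 1450278_at was at -0.16 ± 0.08 (adjusted p = 0.341). Tacr1, the substance P receptor, was at -0.09 (95% interval -0.28 to 0.10) and Tacr2, the neurokinin A receptor, at -0.02 (-0.20 to 0.17).

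The neurotensin system was lower on both of its G protein-coupled receptors. Ntsr1, the high-affinity receptor and a marker of corticothalamic neurons of layer VI, read 5.31, 5.29 and 5.33 in D6/Zbtb20S pools, against 6.97, 7.10 and 6.53 in wildtype pools. The transgenic pools differed among themselves by less than 0.05 log2 units, and wildtype replicate 3 was the wildtype pool nearest to them. The change was -1.55 ± 0.13 (adjusted p = 9.42e-05), which without wildtype replicate 3 was -1.72. Of 19 layer VI and subplate markers other than Ntsr1, 10 were lower, 3 higher and 6 not called. Of all genes 3.64% were lower and 4.06% higher. The summed linear signal of the list, Ntsr1 included, was 1421 to 1510 in D6/Zbtb20S pools and 3196 to 3872 in wildtype pools, and Cplx3, Sulf1, Syt6 and Trh were dim on every array. The part of these cells in the Ntsr1 result was not tested.

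Ntsr2, the low-affinity neurotensin receptor, known from astrocytes, read 3.59, 3.27 and 3.88 in D6/Zbtb20S pools and 3.96, 4.27 and 4.34 in wildtype pools. The groups were separated by 0.087 log2 units, and the transgenic mean was dim. Ntsr2 fell by 0.61 ± 0.15 on the log2 scale (adjusted p = 0.0407), a call lost without wildtype replicate 2 (adjusted p = 0.149) or 3 (0.0901) and without D6/Zbtb20S replicate 1 (0.135) or 2 (0.114). Of 18 markers of astrocytes and radial glia 2 were lower and 0 higher (4 at an unadjusted p under 0.05). Of all genes 3.64% were lower and 4.06% higher. The summed linear signal of these markers was 8195 to 8331 in D6/Zbtb20S and 8043 to 8938 in wildtype pools, and S100b was dim on every array.

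Sort1, the sorting receptor, read 7.63, 7.51 and 7.71 in D6/Zbtb20S pools and 7.60, 7.49 and 7.53 in wildtype pools. These overlapped, and the change of 0.07 had an interval of -0.11 to 0.26.

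Of 5 somatostatin receptors, all coupled to Gi, Sstr2 alone was called by limma. Sstr2, which is enriched in cortical progenitors and newborn neurons, read 4.94, 4.79 and 4.55 in D6/Zbtb20S pools and 5.73, 5.38 and 5.99 in wildtype pools. All transgenic pools lay below all wildtype pools, by at least 0.44 log2 units, and the fall was 1.92-fold (-0.94 ± 0.15, adjusted p = 0.00512). Intermediate progenitor markers other than Sstr2 were lower in 2 and higher in 1 of 10, where 3.64% of all genes were lower and 4.06% higher. The whole list summed to 763 to 861 in D6/Zbtb20S and 906 to 1202 in wildtype pools on the linear scale, with Neurog1 dim throughout. The part of these cells in the Sstr2 result was not tested.

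Sstr4 read 6.92, 6.77 and 7.14 in D6/Zbtb20S pools and 6.36, 6.56 and 6.90 in wildtype pools, with overlap between wildtype replicate 3 and the transgenic pools. Its change of 0.34 ± 0.14 did not pass (adjusted p = 0.227), but did without wildtype replicate 3 (0.48, adjusted p = 0.0433). Sstr1, Sstr3 and Sstr5 were dim on every array, with changes from -0.0062 to 0.10.

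Trhr, the thyrotropin-releasing hormone receptor of pituitary and brain, was lower in D6/Zbtb20S tissue. Trhr read 1.59, 1.61 and 1.41 in D6/Zbtb20S pools, against 3.28, 3.98 and 3.66 in wildtype pools. Wildtype replicate 2 alone exceeded the median of its array, and the groups were 1.68 log2 units apart. The difference was -2.11 ± 0.16 (adjusted p = 4.14e-05), with both group means dim, so no fold is given for Trhr. The other Trhr probe set, 1449572_at, was dim on all arrays in both genotypes, with 1.43, 1.37 and 1.43 in D6/Zbtb20S pools and 1.39, 1.43 and 1.30 in wildtype pools.

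**Figure D2:**
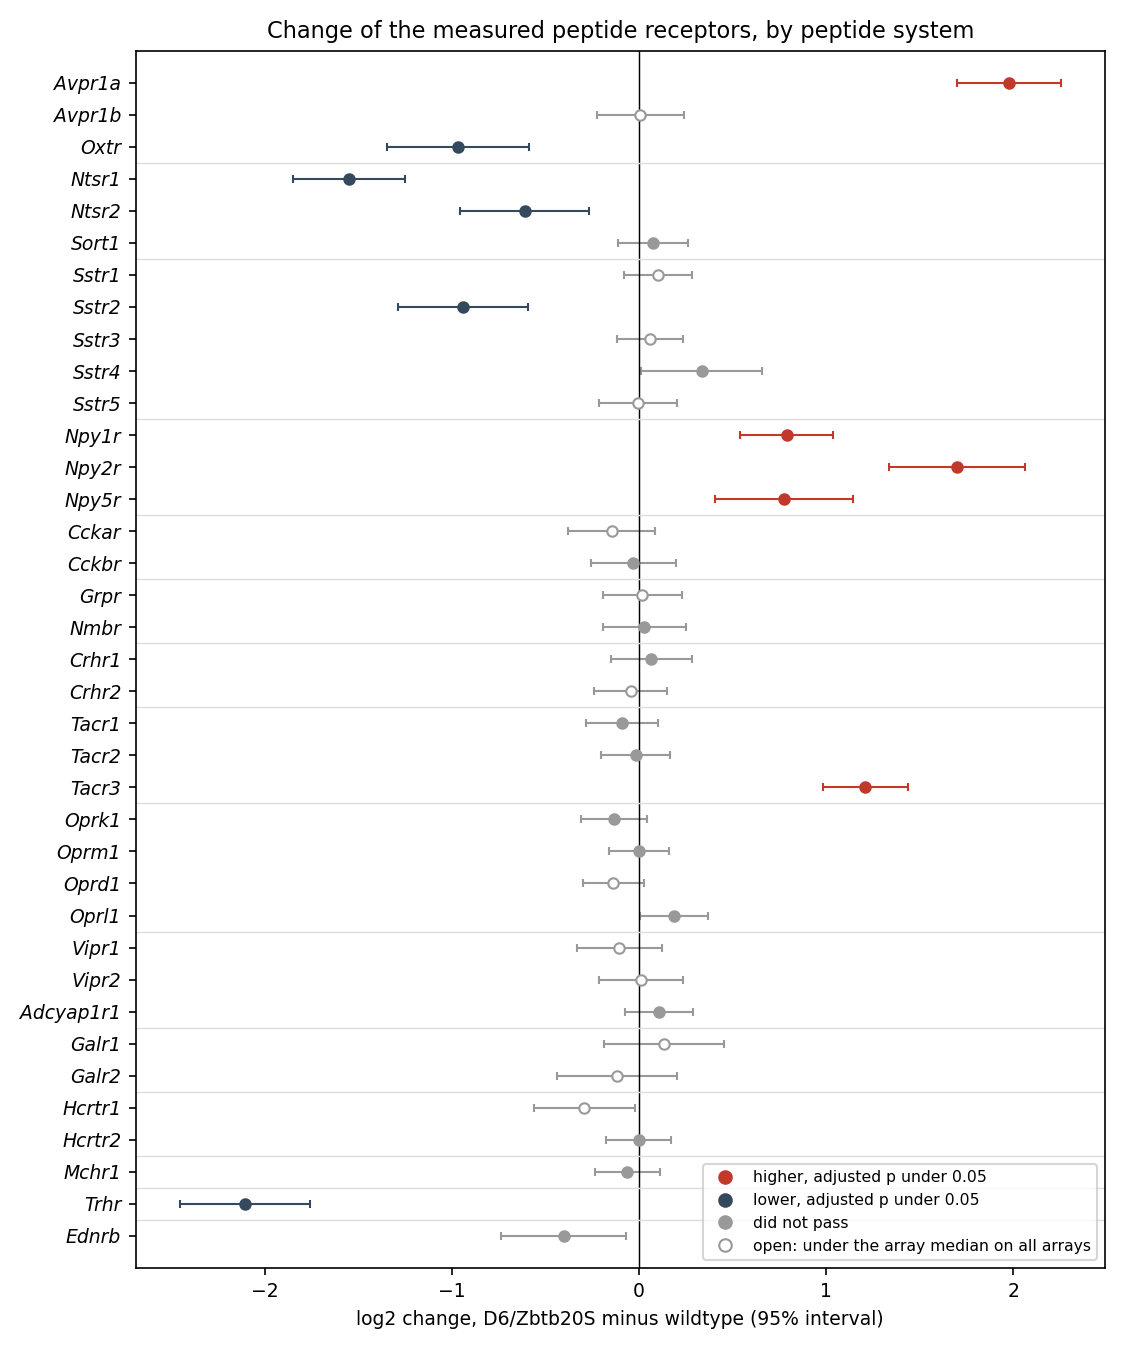
Log2 change (horizontal axis, D6/Zbtb20S minus wildtype) with its 95% interval for the 37 measured receptors, grouped by peptide system. The 5 receptors in red were higher and the 5 in dark blue lower, open points are genes under the array median on all arrays, and the intervals of the 27 grey ones lie between -0.74 and 0.66.

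The other 27 receptors did not pass, and their changes lay between -0.40 (Ednrb) and 0.34 (Sstr4). All 27 intervals of the measured signal lay inside a 2-fold change in either direction, and 24 lay within 0.5 log2 units of 0. For receptors near the floor, where changes are compressed, a narrow interval does not exclude a larger change of the transcript. Of these 27, 13 were dim on every array and 13 above the array median on every array. At an unadjusted p under 0.05 there were 4 of them (Sstr4, Oprl1, Hcrtr1 and Ednrb). By coupling, 2 of 17 Gq receptors were called higher and 4 lower, and 3 of 14 Gi receptors higher and 1 lower, where 4.06% of all genes were higher and 3.64% lower. For the 5 Gs receptors the limma count was 0, also at an unadjusted p under 0.05. Dim on every array were 3 of the 5 Gs, 5 of the 17 Gq and 5 of the 14 Gi receptors. The Gs receptors are too few to set a count of 0 apart from the 7.71% of all genes called.

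Receptors that were well measured and showed small differences included Adcyap1r1, the PAC1 receptor of cortical progenitors and neurons. It read 7.89, 7.91 and 7.999 in D6/Zbtb20S pools and 7.91, 7.74 and 7.82 in wildtype pools, a change of 0.11 (interval -0.08 to 0.29). Crhr1, the main receptor of corticotropin-releasing hormone in the forebrain, averaged 6.17 ± 0.12 in D6/Zbtb20S and 6.11 ± 0.12 in wildtype tissue (0.06, interval -0.15 to 0.28). Cckbr, the brain cholecystokinin receptor, averaged 4.97 ± 0.16 in D6/Zbtb20S and 4.999 ± 0.11 in wildtype tissue (-0.03, interval -0.26 to 0.20).

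None of the 4 opioid receptors passed in limma, and 1 of them, Oprl1, did so at an unadjusted p under 0.05. Oprl1, the nociceptin receptor, read 6.90, 6.90 and 6.90 in D6/Zbtb20S pools and 6.66, 6.83 and 6.64 in wildtype pools, which do not overlap, but the change of 0.19 gave an adjusted p of 0.227. The kappa receptor Oprk1 also had groups that did not overlap (4.15 ± 0.08 in D6/Zbtb20S, 4.28 ± 0.05 in wildtype, adjusted p = 0.394), as did the dim delta receptor Oprd1 (adjusted p = 0.336). The mu receptor Oprm1 was at 0.0013 with an interval of -0.16 to 0.16, and its 3 other probe sets were dim on all arrays. The probe set that represents Oprm1 was nearly level across pools (SD 0.0045 in D6/Zbtb20S and 0.0031 in wildtype). Whether it reads the transcript was not tested, so the interval does not show an unchanged Oprm1.

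Orexin and melanin-concentrating hormone are made in the lateral hypothalamus and reach the cortex through long axons. The orexin receptor Hcrtr2 (-0.0022, interval -0.18 to 0.17), the melanin-concentrating hormone receptor Mchr1 (-0.06, -0.24 to 0.11) and the neuromedin B receptor Nmbr (0.03, -0.19 to 0.25) had intervals within 0.5 log2 units of 0. Hcrtr1, dim on all arrays, had a change of -0.29 (adjusted p = 0.206) and passed in the fit without D6/Zbtb20S replicate 3 (-0.43, adjusted p = 0.0276). Grpr, Cckar, Crhr2, Vipr1, Vipr2, Galr1 and Galr2 were dim on every array, and their changes ran from -0.15 for Cckar to 0.13 for Galr1.

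Ednrb, the endothelin B receptor of radial glia, astrocytes and endothelium, depended on the probe set. The brightest, 1437347_at, read 7.44, 7.04 and 7.23 in D6/Zbtb20S pools and 7.36, 7.62 and 7.94 in wildtype pools, which overlap (-0.40 ± 0.15, adjusted p = 0.156). By contrast 1423594_a_at read 5.399, 5.43 and 5.21 in D6/Zbtb20S pools and 4.61, 4.57 and 4.70 in wildtype pools, all transgenic pools above all wildtype pools, and was called higher (0.72 ± 0.09, limma adjusted p = 0.00283 over all probe sets). The third, 1426314_at, was at -0.27 ± 0.10 (adjusted p = 0.209), and no direction is given for the gene.

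**Figure D3:**
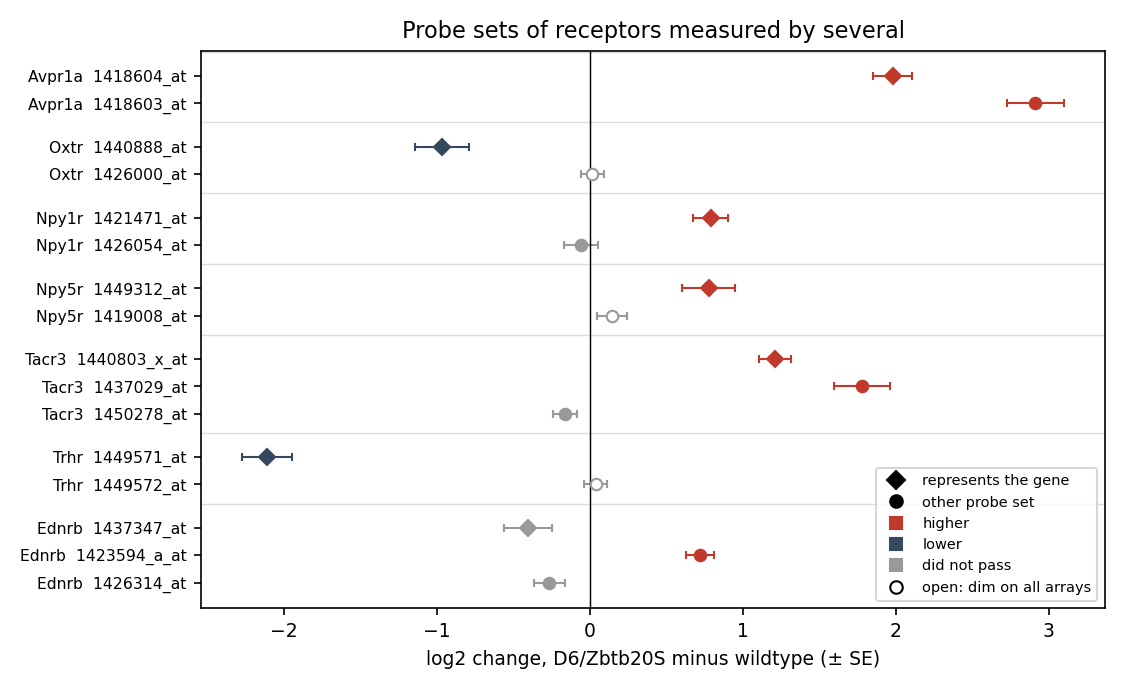
Log2 change (horizontal axis, D6/Zbtb20S minus wildtype, ± SE) of every probe set of the 7 receptors that have several and at least 1 that passed, in the fit over all probe sets. Diamonds represent the gene in the counts, open symbols are dim on all arrays, and Ednrb is the gene with a called probe set (0.72) opposite in sign to the one that represents it (-0.40).

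In all, the 37 receptors had 68 probe sets. Of the 10 called receptors 4 had a single probe set (Ntsr1, Ntsr2, Sstr2 and Npy2r), and the other 6 had 7 further probe sets, of which 2 were called the same way (those of Avpr1a and Tacr3) and 5 were not called. In that fit over all probe sets Ntsr2 itself did not pass (adjusted p = 0.0708). Among 24 further probe sets of receptors that were not called, that of Ednrb was the 1 that passed.

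The precursors of the receptors' ligands were examined next, as the other side of each system. Of 32 measured precursors 2 were called higher and 4 lower (18.8% in all, against 7.71% of all genes), with a median change of -0.070. The neurotensin precursor was lower, as were 2 of the 3 neurotensin receptors. Nts read 8.85, 8.65 and 8.84 in D6/Zbtb20S pools and 11.55, 11.25 and 11.05 in wildtype pools (-2.51 ± 0.13, adjusted p = 5.7e-06). Gastrin-releasing peptide (Grp) averaged 5.10 ± 0.14 in D6/Zbtb20S and 8.13 ± 0.12 in wildtype tissue (-3.03 ± 0.10, adjusted p = 5.57e-07), while its receptor Grpr was dim in both genotypes (2.59 ± 0.13 in D6/Zbtb20S, 2.57 ± 0.10 in wildtype).

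Adcyap1, which encodes PACAP, read 4.22, 4.19 and 4.26 in D6/Zbtb20S pools and 5.72, 5.84 and 4.92 in wildtype pools, with wildtype replicate 3 nearest to the transgenic pools. It fell by 1.27 ± 0.20 on the log2 scale (adjusted p = 0.0041), beside a receptor, Adcyap1r1, whose interval was -0.08 to 0.29. Galanin (Gal) fell by 0.41 ± 0.09 (adjusted p = 0.0192) and was dim in D6/Zbtb20S tissue. Cholecystokinin (Cck) rose by 0.65 ± 0.09 (adjusted p = 0.00234) and proenkephalin (Penk) by 0.66 ± 0.13 (adjusted p = 0.0107), both without a called receptor of their system.

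In the other systems with called receptors the ligand genes did not pass. Npy read 6.47, 6.66 and 6.82 in D6/Zbtb20S pools and 6.93, 6.89 and 6.77 in wildtype pools (-0.21 ± 0.10, adjusted p = 0.276), beside 3 higher receptors. Somatostatin (Sst) read 7.07, 6.97 and 7.24 in D6/Zbtb20S pools and 7.18, 7.15 and 7.19 in wildtype pools (-0.08, adjusted p = 0.672), beside the lower Sstr2. Oxytocin (Oxt, -0.06, adjusted p = 0.78) and the neurokinin B precursor Tac2 (-0.44, adjusted p = 0.196) did not pass either, and vasopressin (Avp) and thyrotropin-releasing hormone (Trh) were dim on all arrays.

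**Figure D4:**
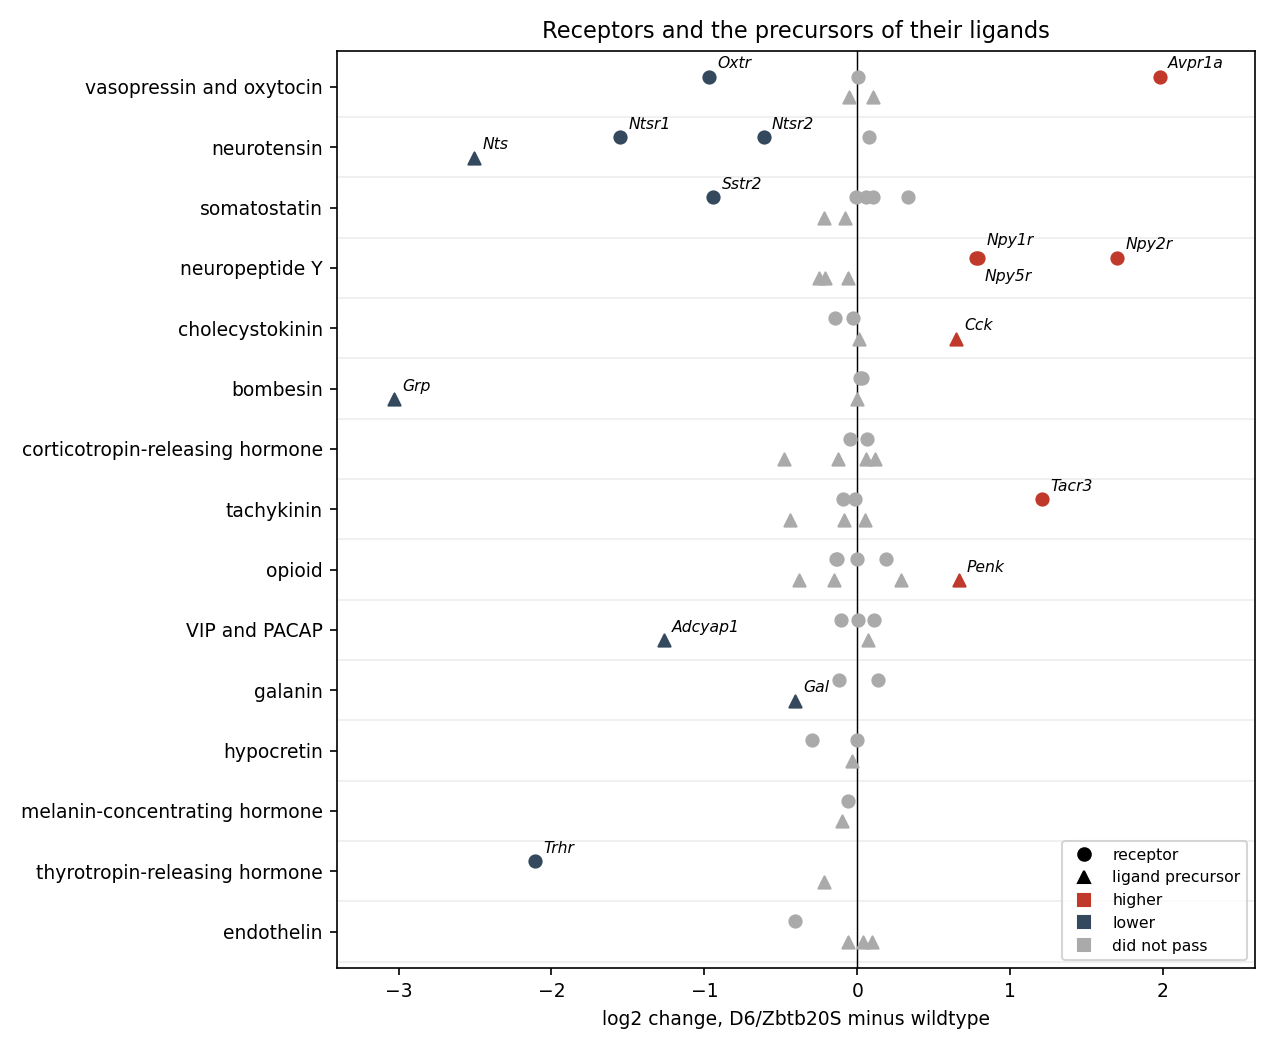
Log2 change (horizontal axis, D6/Zbtb20S minus wildtype) of receptors (circles) and of the precursors of their ligands (triangles) in 15 peptide systems, in red where called higher, dark blue where called lower and grey where not called. In the neurotensin system the ligand (Nts, -2.51) and 2 of 3 receptors (Ntsr1, -1.55, and Ntsr2, -0.61) were lower and Sort1 was not called, and the neuropeptide Y receptors lie at 0.78 to 1.70 beside uncalled ligands.

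Enzymes that make or destroy neuropeptides changed in 3 of 20 cases (15.0%, against 7.71% of all genes, median -0.087). Neprilysin (Mme), which cleaves many neuropeptides outside cells, read 3.40, 3.27 and 3.13 in D6/Zbtb20S pools and 4.13, 4.11 and 4.58 in wildtype pools (-1.01 ± 0.13, adjusted p = 0.00137). Glutaminyl cyclase (Qpct), which forms the blocked amino terminus of neurotensin and thyrotropin-releasing hormone, fell by 0.67 ± 0.10 (adjusted p = 0.00248). The prohormone convertase Pcsk1 rose by 0.38 ± 0.08 (adjusted p = 0.0249) on a probe set that was dim on all arrays.

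Of 50 further peptide receptors and accessory proteins outside the list, 4 were called higher and 2 lower, where 4.06% of all genes were higher and 3.64% lower (median -0.015), and 24 were dim on every array. The parathyroid hormone receptors Pth2r (1.73 ± 0.24) and Pth1r (1.16 ± 0.19), the orphan receptor Gpr37 (1.08 ± 0.17) and the sortilin relative Sorcs3 (0.70 ± 0.13) rose, with adjusted p from 0.00185 to 0.00966. Rxfp1, the relaxin receptor, fell by 1.16 ± 0.14 (adjusted p = 0.000645) and was dim on all arrays. Ramp3, a partner of calcitonin-type receptors, fell by 0.99 ± 0.09 (adjusted p = 0.00017).

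Downstream of the receptors, 5 of 30 genes for G proteins, arrestins, receptor kinases and phospholipase C beta were called (16.7%, against 7.71% of all genes, median -0.11). Gng7, a G protein gamma subunit, rose by 1.05 ± 0.09 and the inhibitory alpha subunit Gnai1 by 0.40 ± 0.08, while the gamma subunit Gng4 (-1.15 ± 0.16), the Gq effector Plcb4 (-0.99 ± 0.11) and the receptor kinase Grk3 (-0.46 ± 0.10) fell, with adjusted p from 0.000121 to 0.0183.

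**Figure D5:**
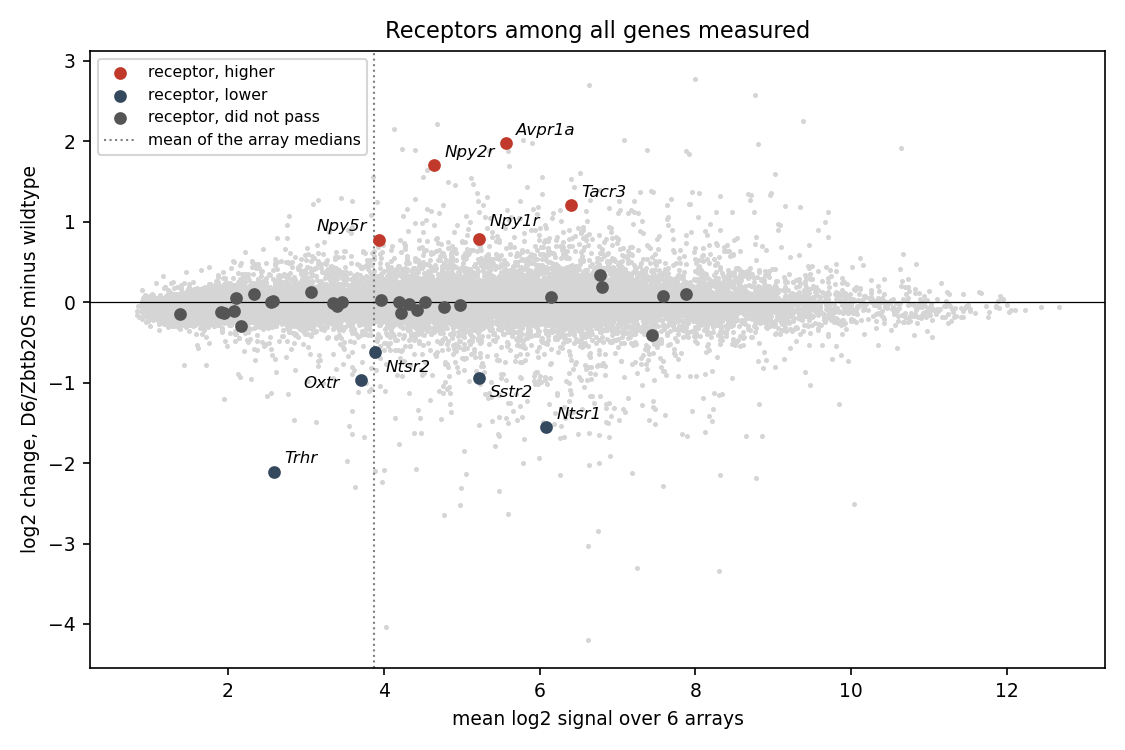
Log2 change (vertical axis, D6/Zbtb20S minus wildtype) against mean log2 signal over 6 arrays (horizontal axis) for all 18193 genes in grey and the 37 receptors in colour, with a dotted line at the mean of the array medians. Avpr1a lies at 1.98 and Trhr at -2.11, and Trhr and Oxtr are the called ones whose mean lies under the array median.

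Markers of further cell types were counted in the same way, with summed linear signals. Of all genes 7.71% were called, 4.06% higher and 3.64% lower. Microglial genes were higher in 4 of 11 (816.6 to 945.3 in D6/Zbtb20S, 626.0 to 663.6 in wildtype, none dim on all arrays), and oligodendrocyte genes lower in 4 of 10 (750.5 to 847.5 in D6/Zbtb20S, 1024 to 1220 in wildtype, Mag and Mog dim). Among GABAergic genes 2 of 14 were lower (2024 to 2098 in D6/Zbtb20S, 2165 to 2329 in wildtype, Dlx6 and Erbb4 dim). For endothelial and mural cells 1 of 15 was lower (6.67%, near the share of all genes called). Their sums overlapped (839.9 to 1031 in D6/Zbtb20S, 876.4 to 1092 in wildtype, Pecam1 dim). Of 17 measured markers of hypothalamus, thalamus and choroid plexus limma called 0, with 2 at an unadjusted p under 0.05. Of these markers 8 were dim on every array, and the sums overlapped (396.1 to 487.5 in D6/Zbtb20S, 425.5 to 458.8 in wildtype). The part of these cell types in the receptor changes was not tested.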

How the data were processed

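Gene expression was measured with Affymetrix 3' arrays in 6 RNA pools, 3 of D6/Zbtb20S and 3 of wildtype tissue, each from 7 animals, per the labels. The deposited table gives log2 signals, with RMA and limma named in the submitters' processing notes and no version or build in the sources used here. Array medians ran from 3.829 to 3.974. That spread does not tell which scaling step was last, and the number of arrays limits precision.

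Of 45101 probe sets 64 controls were left out. Of the rest 34945 had 1 gene symbol in the platform annotation, 932 several and 9160 none. The probe set with the highest mean stood for each of 18193 genes. Of the named probe sets 34741 matched a GRCm38.p6 gene by ID, and 0 symbols changed. Promoter windows are from RefSeq (GRCm38.p6).

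The test was limma 3.58.1 under R 4.3.3, using lmFit and eBayes with 1 coefficient per group, Benjamini-Hochberg adjustment over all genes and 95% intervals from the moderated fit. Figures used matplotlib 3.10.9 in Python 3.11.15. All listed receptors and ligand precursors could be named, and of other lists up to 6 members that passed, by smallest p. The receptors and lists were chosen with earlier results of these data known. On simulated data for this comparison (18193 genes, 200 changed), limma found 58% of log2 changes of 0.5 and 92% of log2 changes of 1, with 6.25% of its calls false. The simulated noise was normal and independent between genes, and 1402 genes were called in the data. These rates therefore need not hold for the data.

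The alternatives were leaving out each array, a replicate block, equal medians, quantile normalization, an intensity trend, an ordinary linear model, averaging the probe sets of a gene, taking each further probe set, and keeping just those probe sets that exceeded their array's median on 3 or more arrays. A receptor called in neither fit was given no direction.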

Additional observations from a re-analysis of the deposited data

How the results depend on the processing

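With each array left out in turn, 4 to 6 receptors were called higher and 4 to 6 lower, while the count over all genes ran from 777 (without wildtype replicate 2) to 1538 (without wildtype replicate 3), with 837 without D6/Zbtb20S replicate 1. Avpr1a, Npy1r, Npy2r, Tacr3, Ntsr1, Oxtr, Sstr2 and Trhr passed in all 6 of these fits. The ordinary linear model called 267 genes, among them 2 receptors higher and 1 lower. With the replicate block 5 receptors were higher and 5 lower, and 1343 genes were called. Correlations of same-numbered deviations from the group means were -0.215, 0.175 and -0.00814. Of the D6/Zbtb20S pools only replicate 2 correlated best with its own number. With 3 pools per group these values cannot show whether the pools were paired. Counts were also 5 and 5 with equal medians (1514 genes called in all) and with quantile normalization (1556). They were the same with the intensity trend (1445) and the mean of probe sets (1498). The filter on dim probe sets gave 5 and 4, with 1413 of 11838 genes called, and it removed Trhr from the genes tested. Oxtr, Ntsr2 and Npy5r passed that filter through their higher group alone, so their calls there support nothing. Averaging the probe sets gave 0.37 for Npy1r (0.79 on the brightest), 0.46 for Npy5r (0.78), -1.04 for Trhr (-2.11) and -0.48 for Oxtr (-0.97), and all 4 passed. By probe set, signs turned for Oxtr (0.016 on 1426000_at), Npy1r (-0.058 on 1426054_at), Tacr3 (-0.16 on 1450278_at) and Trhr (0.037 on 1449572_at), none of which passed there, and for Ednrb (0.72 on 1423594_a_at). The cause was not tested. Signals near the floor limit what can be read for the 13 receptors that were dim on every array.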
